A study of Homo sapiens with 24 samples.

Results

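The 10 genes described here encode cytokines of the interleukin-6 (IL-6) family, the receptors that bind them and the kinases that those receptors carry. The ligands were IL6, IL11, LIF and CLCF1, the receptors IL6R, IL6ST, LIFR and OSMR, and the kinases JAK1 and JAK2. They were found by gene symbol among the 28307 genes of the count table, each in 1 row. All 10 had counts in SUM159, whereas 8 had a count in SW620.

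RNA was sequenced from SUM159, a breast cancer line, and SW620, a colon cancer line, grown in adherent culture for 30 h under nifuroxazide (NIF), a nitrofuran antibiotic that has been described as an inhibitor of STAT3 signalling, or under DMSO. Cells of each line and treatment were sorted into ALDHbr cells, with bright ALDEFLUOR staining for aldehyde dehydrogenase activity (ALDHpos in the sample labels), and ALDHneg cells, without it. The study's methods do not state whether the sort of these samples came before or after the treatment. The 8 groups, SUM159 ALDHbr DMSO, SUM159 ALDHbr NIF, SUM159 ALDHneg DMSO, SUM159 ALDHneg NIF and the same groups of SW620, held 3 libraries each, 24 in all. Replicates came from independent experiments, as the study's methods state, while the labels give only a replicate number. The spread between replicates was uneven. As chi-square per gene between 2 replicates (higher for more spread), it was 1.97 to 5.28 in the SW620 ALDHneg groups. In the other groups it was 6.52 to 46.1. Numbers of called genes depend on this spread as well as on the size of the changes. Each line is a single established line, so that a difference between them is one between 2 lines and not between tumour types.

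IL-6 family cytokines act through the shared signal-transducing chain gp130, which IL6ST encodes. IL-6 and IL-11 first bind a receptor of their own (IL6R and IL11RA) and then bring together gp130 chains, whereas LIF pairs gp130 with LIFR, oncostatin M pairs it with LIFR or OSMR, and CLCF1 needs CNTFR beside LIFR and gp130. The receptor chains carry JAK1, JAK2 and TYK2, which phosphorylate STAT3, and STAT3 in turn switches on SOCS3, an inhibitor that binds gp130 and the kinases. In breast and colon tumours the pathway is known for its ties to inflammation and to stem-like cells, and IL6 itself is a classic target of NF-kB.

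The promoters of 3 genes are shown, that of IL6 because its RNA changed most under NIF in SUM159, and those of IL6R and IL11 because, with CLCF1, they had the highest fold changes under NIF in SW620. Each line gives the 250 bases before the annotated start, 5′ to 3′ on the strand of the gene, from RefSeq on GRCh38.p14, and capitals mark motif matches on either strand.
IL6 (chr7:22726950-22727199, + strand): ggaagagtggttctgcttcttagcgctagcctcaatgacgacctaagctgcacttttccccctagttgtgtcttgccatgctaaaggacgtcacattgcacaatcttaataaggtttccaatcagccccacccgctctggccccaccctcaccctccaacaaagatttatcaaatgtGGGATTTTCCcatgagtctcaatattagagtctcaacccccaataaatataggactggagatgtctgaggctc
IL11 (chr19:55370464-55370713, - strand): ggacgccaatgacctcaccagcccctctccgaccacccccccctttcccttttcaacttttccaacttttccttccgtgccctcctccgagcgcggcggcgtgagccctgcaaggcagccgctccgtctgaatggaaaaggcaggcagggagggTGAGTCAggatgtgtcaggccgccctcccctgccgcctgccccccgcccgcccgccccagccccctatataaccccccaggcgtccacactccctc
IL6R (chr1:154405093-154405342, + strand): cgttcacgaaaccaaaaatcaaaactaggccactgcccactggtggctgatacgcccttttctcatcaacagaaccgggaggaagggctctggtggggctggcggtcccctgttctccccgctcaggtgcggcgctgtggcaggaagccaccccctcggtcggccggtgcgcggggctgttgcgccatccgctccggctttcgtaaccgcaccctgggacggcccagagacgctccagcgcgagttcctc

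The capitals in the IL6 promoter mark the NF-kB consensus of 10 bases, from 73 to 64 bases before the start, and 9.96% of the 35114 promoter windows of this length held a match to it. In the IL11 promoter they mark TGANTCA, the AP-1 motif, from 96 to 90 bases before the start, which 6.57% of windows held. The IL6R window held neither of them, nor TTCNNNGAA (the STAT motif, in 6.57% of windows), TGACNNNGC (the antioxidant response element, in 10.9%) or TGATGNAA (the C/EBP-ATF element, in 3.14%). Promoter windows were at hand for 8 of the genes, 15 in all. The STAT motif was found in 2 of the 3 LIFR windows and the NF-kB consensus also in that of IL6ST. The antioxidant response element was found in 1 of the 3 JAK1 windows and the C/EBP-ATF element in 1 of the 4 JAK2 windows. A match describes the letters and not a bound site.

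On GRCh38.p14 the ligand genes lie at chr7:22727200-22731998 (IL6, Entrez Gene 3569), chr19:55364382-55370463 (IL11, 3589), chr22:30240453-30246759 (LIF, 3976) and chr11:67364168-67374177 (CLCF1, 23529). The receptor genes lie at chr1:154405343-154469450 (IL6R, 3570), chr5:55935095-55994963 (IL6ST, 3572), chr5:38474668-38608403 (LIFR, 3977) and chr5:38846012-38945579 (OSMR, 9180), and the kinase genes at chr1:64833229-65067746 (JAK1, 3716) and chr9:4984390-5129948 (JAK2, 3717). Antisense or otherwise overlapping genes are annotated for all but IL11 and IL6ST. The library protocol was stranded, but the strand setting of the counting was not given, so reads of such pairs may have been shared. In CPM, the counts scaled by library size, IL6-AS1 reached 1.16 CPM and LIFR-AS1 1.22 CPM in SUM159, and LIF-AS1 and IL6R-AS1 stayed at or below 0.217 CPM in both lines. LOC100130987, which overlaps CLCF1, ran from 0.686 to 1.49 CPM in SUM159 and from 1.52 to 3.15 CPM in SW620.

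The libraries held 30253187 to 43127948 counts each, with a median of 36520935, at which 3 counts correspond to between 0.0633 and 0.103 CPM. SUM159 libraries carried mesenchymal RNA (VIM from 3540 to 4896 CPM, against 0.376 CPM or less in SW620). ZEB1, SPARC and FN1 likewise stayed at or below 2.18 CPM in SW620. The other mesenchymal markers followed were present in SW620 too, CD44 from 134.6 to 362 CPM and AXL from 5.80 to 35.2 CPM, below every SUM159 library. SW620 libraries carried epithelial RNA (EPCAM from 639.7 to 937 CPM), although the intestinal factors CDX1 and CDX2 stayed at or below 2.13 CPM there. The leukocyte genes PTPRC, CD3E and MS4A1 did not pass 0.264 CPM. Of the monocyte and macrophage genes, CD68 was at 10.5 to 28.5 CPM in SUM159 and 11.2 to 33.1 CPM in SW620, CD14 was at 3.83 to 5.37 CPM in SW620 and lower in every SUM159 library, and LYZ was high in SW620, from 1280.4 to 1679 CPM. The sort left ALDH1A1, an enzyme that the ALDEFLUOR assay reads, at 127 ± 26 CPM in SUM159 ALDHbr and 0.450 ± 0.055 CPM in ALDHneg cells under DMSO (SD, n = 3), and at 1397 ± 50 and 956 ± 18 CPM in SW620. Replicate 3 of SUM159 ALDHbr DMSO held 87 EPCAM, 171 LYZ and 55 LGALS4 counts, at most 11, 27 and 19 in any other SUM159 library, which is 0.291% to 0.326% of the SW620 mean of these genes. It also resembled its group least (mean r of 0.989), and replicate 2 of SW620 ALDHbr DMSO also stood apart, since without it 5486 genes, and not 1577, separated the SW620 populations under DMSO. Calls of the 10 genes that changed without either library are given with and without it, as are counts over the wider pathway that did.

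The lines differed in which parts of the pathway they expressed at all. Levels between genes were compared per kilobase of transcript, over the spliced length of the MANE Select transcript. In SUM159 ALDHbr cells under DMSO, IL6ST was highest at 56.5 ± 4.8 CPM per kb (SD, n = 3), followed by OSMR at 25.1 ± 3.0, JAK1 at 23.5 ± 1.2 and IL6R at 12.2 ± 0.57 CPM per kb. CLCF1 (7.54 CPM per kb), IL6 (5.02), LIFR (4.95), LIF (2.66), JAK2 (0.829) and IL11 (0.676) came below. The ranges of OSMR and JAK1 overlapped on this scale, as did those of IL6 and LIFR and those of JAK2 and IL11.

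SW620 ALDHbr cells under DMSO had another order. JAK1 led at 13.3 ± 1.8 CPM per kb, followed by the ligands CLCF1 at 11.4 ± 0.62 and LIF at 9.16 ± 0.34 and by IL6ST at 8.42 ± 2.5 CPM per kb. JAK2 (0.732 CPM per kb), IL6R (0.634) and IL11 (0.199) were low, OSMR was at 0.0498 CPM per kb, and IL6 and LIFR had no count in any of the 12 SW620 libraries. The range of JAK1 overlapped that of CLCF1, and that of IL6ST overlapped those of CLCF1 and LIF, while LIF and CLCF1 did not overlap. JAK2 and IL6R overlapped as well.

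Between the lines, in ALDHbr cells under DMSO, 7 of the 10 genes were higher in SUM159 and 2 lower (edgeR quasi-likelihood test, Benjamini-Hochberg adjusted over all genes). Of all 16271 genes tested, 81.3% passed in this comparison, 41.7% higher and 39.6% lower in SUM159. The total called among the 10 genes is thus close to that of all genes, though not its split by direction. Their median log2 fold change was 2.24, against 0.05 over all genes. IL6 was at least 55.0-fold higher in SUM159 and LIFR at least 508-fold higher, taking 3 counts in the shallowest SW620 library as the level for SW620. OSMR, with 2 to 17 counts in the SW620 libraries, was higher by 8.92 on the log2 scale (SE 0.23, edgeR adjusted p = 2.76e-21), IL6R by 4.27 (SE 0.09, adjusted p = 1.31e-22), IL6ST by 2.75 (SE 0.15, adjusted p = 2.52e-14), IL11 by 1.73 (SE 0.33, adjusted p = 4.06e-05) and JAK1 by 0.82 (SE 0.08, adjusted p = 3.25e-09). LIF and CLCF1 were lower in SUM159, with log2 fold changes of -1.79 (SE 0.19, edgeR adjusted p = 6.03e-09) and -0.60 (SE 0.08, adjusted p = 3.57e-07). JAK2 was not called, at 5.82 ± 0.66 CPM in SUM159 and 5.14 ± 0.72 CPM in SW620 (edgeR adjusted p = 0.244; 0.0482 with library-size scaling). The lines differ in tissue of origin and in much else, and these cannot be told apart here.

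NIF left most of the 10 genes uncalled in SUM159 and raised most of those tested in SW620. For SUM159 ALDHbr cells 0 of 10 genes passed the test, against 3.16% of all genes (0.936% higher and 2.23% lower). At an unadjusted p under 0.05 there were 4 genes, a count without a baseline, since the share of all genes at that threshold is not given here. DESeq2 called 1, IL6ST, and 875 over all genes. ALDHneg cells of this line had 1 called gene, IL6, lower, against 3.3% of all genes (1.1% higher and 2.2% lower). Same-numbered libraries of SUM159 deviated together, and the numbers were taken to pair them, although the labels give only the number. The counts above come from a fit that leaves this pairing out. With the number as a block, 3 of 10 genes were called in ALDHbr cells, all lower (13.3% of all genes). In ALDHneg cells 4 of 10 were called, 3 lower and 1 higher (13.2% of all genes).

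In SW620, 8 of the 10 genes had enough counts for the test, and 6 of them rose under NIF in ALDHbr cells and 6 in ALDHneg cells, with none lower in either. Called genes made up 43.3% of all genes in ALDHbr cells (21.4% higher and 21.9% lower) and 45.1% in ALDHneg cells (22.3% higher and 22.7% lower). Both lists of 6 comprised IL11, LIF, CLCF1, IL6R, JAK1 and JAK2. The median log2 fold change of the 8 genes was 0.73 in ALDHbr and 0.79 in ALDHneg cells, against -0.01 over all genes in each. RNA of a bulk sample does not tell fewer cells that express a gene from less RNA per cell, and this holds for every level given here.

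**Figure D1:**
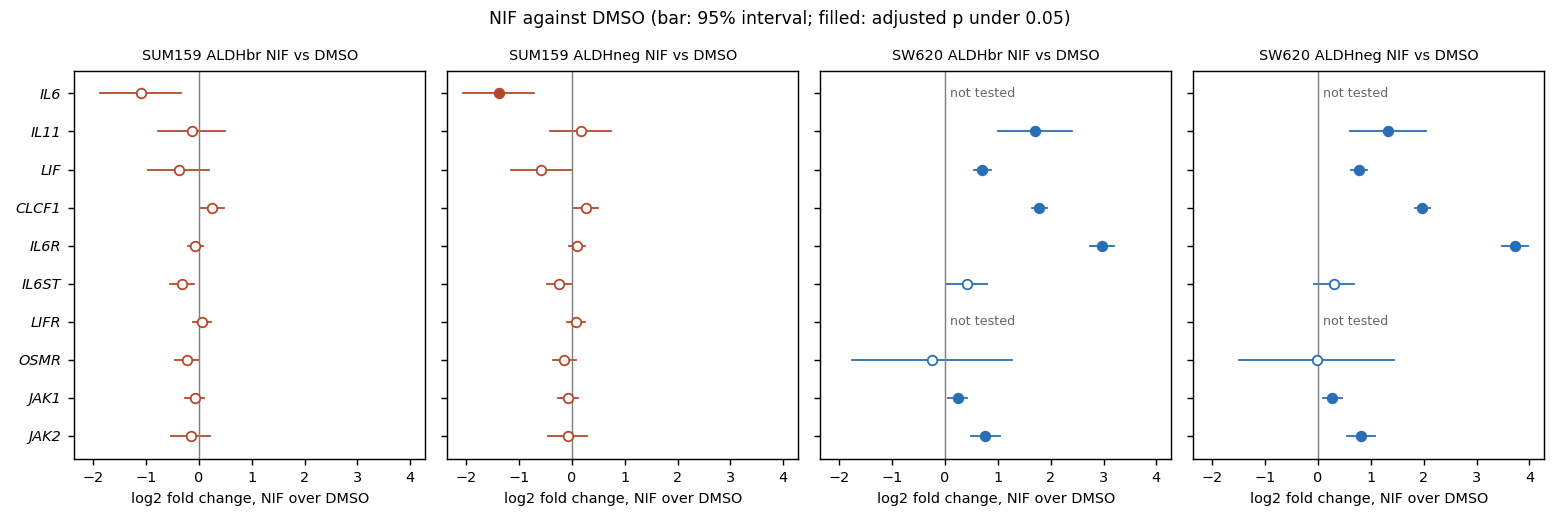
log2 fold change of NIF over DMSO (x axis) for each gene (y axis) in the 4 combinations of line and population, with bars for the 95% interval on the residual degrees of freedom and filled points for an adjusted p under 0.05. The fits are those without the replicate block. Only IL6 in ALDHneg cells is filled among the SUM159 points. In each SW620 panel 6 genes are filled to the right of 0, and IL6 and LIFR had too few counts to be tested.

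Whether the line changed the effect of NIF was tested by the difference between the effects, fitted over all 24 libraries. The study's methods set the concentration of each drug by cell line, and that of NIF is not given in the sources used here, so line and dose cannot be told apart in this comparison. In ALDHbr cells 6 of 10 genes had a higher log2 fold change in SW620 than in SUM159 (23.1% of all genes passed, 12.4% higher and 10.7% lower), and in ALDHneg cells also 6 of 10 (22.4% of all genes, 11.9% higher and 10.5% lower). IL6 and LIFR, without counts in SW620, could not show such a difference. Leaving out replicate 3 of SUM159 ALDHbr DMSO kept the count at 6 in ALDHbr cells (20% of all genes), and leaving out replicate 2 of SW620 ALDHbr DMSO gave 7 (28% of all genes), JAK1 being added.

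Some of the 10 genes were also called between ALDHbr and ALDHneg cells. Their counts were not tested against the shares of all genes. Under DMSO, IL6R and IL6ST were higher and IL6 and LIFR lower in SUM159 ALDHbr cells, 4 of 10 genes, against 23% of all genes (10.7% higher and 12.3% lower). Under NIF, IL6R was higher and IL6, IL11 and LIFR lower, again 4 of 10, against 21.9% (9.95% higher and 12% lower). SW620 had 2 of 8 genes called under DMSO, IL6R higher and LIF lower, against 11.3% of all genes (5.45% higher and 5.86% lower), and 1 of 8 under NIF, LIF, lower, against 6.67% (3.41% higher and 3.26% lower). By the edgeR test within each line, none of the genes had an effect of NIF that differed between the populations. This was 0 of 10 in SUM159 and 0 of 8 in SW620, where all genes gave 0% and 0.00717%. At an unadjusted p under 0.05 within each line there were 0 in SUM159 and 2 in SW620, without a share of all genes to set beside them. DESeq2 called 0 and 1, and 2 and 29 over all genes. By edgeR over all 24 libraries, IL6R was called in SW620, where 4 of all genes were.

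**Figure D2:**
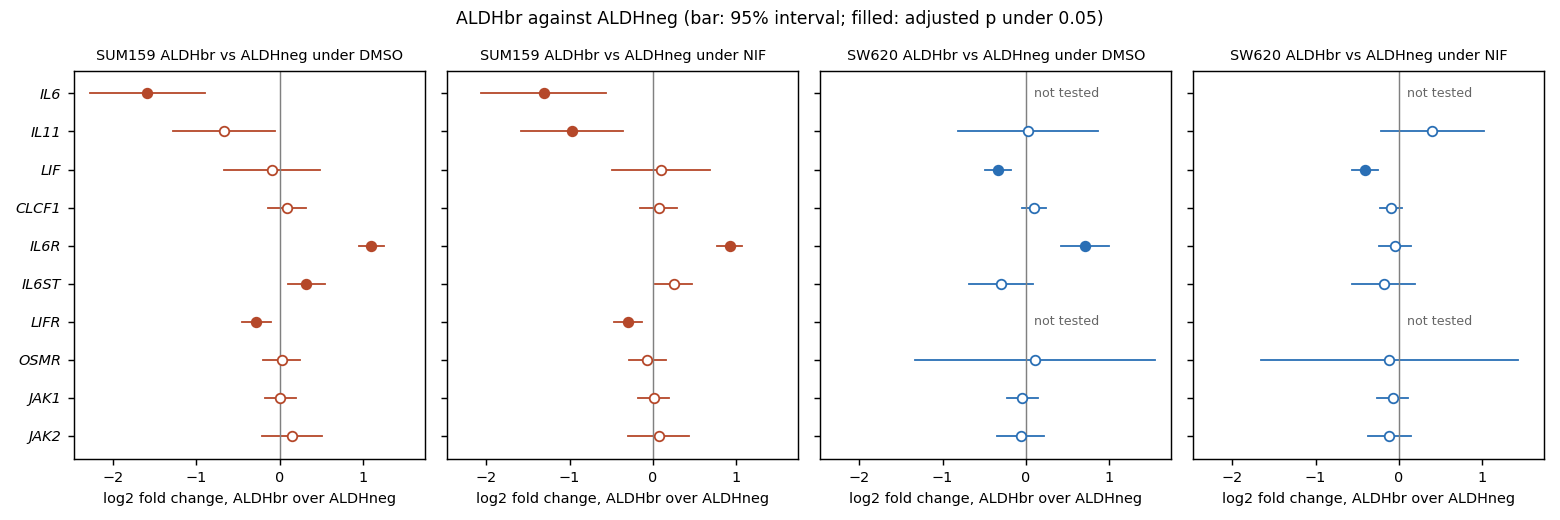
log2 fold change of ALDHbr over ALDHneg cells (x axis) for each gene (y axis) in each line under DMSO and under NIF, with bars for the 95% interval and filled points for an adjusted p under 0.05. In SUM159, IL6 lies to the left of 0 and IL6R to the right in both panels, while in SW620 LIF is filled to the left in both and IL6R to the right under DMSO only.

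IL6, the founding ligand of the family, was detected in SUM159 only, and its levels there fell under NIF in ALDHneg cells. The ALDHneg DMSO libraries held 23.4, 14.0 and 13.4 CPM and the NIF libraries 9.34, 5.30 and 4.57 CPM. All 3 NIF libraries lay below all DMSO libraries, and the log2 fold change was -1.39 (SE 0.29, edgeR adjusted p = 0.0183). This call was lost without replicate 2 or 3 of ALDHneg NIF (adjusted p = 0.0696 and 0.0915) or replicate 1 of ALDHneg DMSO (0.0903), and with the replicate block the adjusted p was 2.32e-08.

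In ALDHbr cells of SUM159, IL6 was at 7.32, 6.07 and 3.59 CPM under DMSO and at 3.37, 2.37 and 2.10 CPM under NIF. The groups did not overlap, the ratio of NIF to DMSO was 0.461, 0.390 and 0.585 in same-numbered libraries, and the log2 fold change of -1.11 was not called (SE 0.33, edgeR adjusted p = 0.088). It was called with the replicate block (-1.10, SE 0.14, adjusted p = 1.05e-05) and without replicate 3 of ALDHbr DMSO, the library that held the epithelial counts (-1.36, SE 0.32, adjusted p = 0.0386). The effects in the populations were not shown to differ, with a difference of 0.28 on the log2 scale and a 95% interval from -0.74 to 1.30.

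The sort separated IL6 as well. ALDHbr cells had less IL6 RNA than ALDHneg cells, by a log2 fold change of -1.59 under DMSO (SE 0.30, edgeR adjusted p = 0.00121) and -1.31 under NIF (SE 0.32, adjusted p = 0.00909), although the latter call was lost without replicate 1 of ALDHneg NIF (-0.91, adjusted p = 0.0686). The order of the 4 groups by mean was ALDHneg DMSO, ALDHneg NIF, ALDHbr DMSO and ALDHbr NIF, of which ALDHneg NIF and ALDHbr DMSO overlapped. The genes whose log2 CPM followed IL6 most closely over the 12 SUM159 libraries were PLD1 (Pearson r = 0.965), CSF1 (0.964) and MITD1 (0.963), a description over libraries that share the same 4 groups.

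IL11, which signals through IL11RA and gp130, was scarce in both lines. In SW620 ALDHbr cells it was at 0.587, 0.251 and 0.578 CPM under DMSO and 1.80, 1.06 and 1.85 CPM under NIF, and in ALDHneg cells at 0.468, 0.608 and 0.331 CPM against 1.29, 1.06 and 1.25 CPM. The groups did not overlap in either population, where IL11 rose by log2 fold changes of 1.70 (SE 0.31, edgeR adjusted p = 0.000492) and 1.33 (SE 0.31, adjusted p = 0.00321). The DMSO libraries held only 8 to 23 counts of this gene.

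SUM159 kept IL11 at 1.27, 2.11 and 1.44 CPM under DMSO and 1.71, 1.58 and 1.09 CPM under NIF in ALDHbr cells, overlapping groups without a call (edgeR adjusted p = 0.859). ALDHneg cells had more of it, at 2.66, 3.16 and 1.86 CPM under DMSO and 3.46, 2.91 and 2.16 CPM under NIF. The difference of ALDHbr from ALDHneg cells was -0.97 on the log2 scale under NIF (SE 0.26, edgeR adjusted p = 0.0155), lost without replicate 3 of ALDHbr NIF (adjusted p = 0.0731) or replicate 1 of ALDHneg NIF (0.0854). Under DMSO it was -0.67 (SE 0.27, adjusted p = 0.0853), called with the replicate block (-0.66, adjusted p = 0.0128) and without replicate 2 of ALDHbr DMSO (-0.91, adjusted p = 0.0434) or replicate 3 of ALDHneg DMSO (-0.86, adjusted p = 0.0384). FRMD6 (r = 0.949), IL31RA (0.945), a receptor chain of the same family, and PPP2R3C (0.944) followed it most closely over the 12 SUM159 libraries.

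LIF, which acts through LIFR and gp130, rose under NIF in SW620, a line in which LIFR itself had no counts. Its levels in ALDHbr cells were 37.0, 35.0 and 34.4 CPM under DMSO and 63.7, 53.4 and 56.7 CPM under NIF, and in ALDHneg cells 44.7, 47.2 and 42.4 CPM against 74.6, 78.1 and 78.4 CPM. All NIF libraries lay above all DMSO libraries of the same population, with log2 fold changes of 0.71 (SE 0.07, edgeR adjusted p = 1.78e-06) and 0.77 (SE 0.07, adjusted p = 5.06e-07). SW620 ALDHbr cells had less LIF RNA than ALDHneg cells, by -0.34 under DMSO (SE 0.07, adjusted p = 0.00678) and -0.41 under NIF (SE 0.07, adjusted p = 0.00185), both without overlap. Both calls were lost when all 24 libraries shared 1 estimate of the spread (adjusted p = 0.223 and 0.206).

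Values of LIF in SUM159 pointed the other way without a call. In ALDHneg cells the levels were 14.0, 11.6 and 7.48 CPM under DMSO and 8.39, 8.30 and 5.31 CPM under NIF, lower in each of 3 same-numbered pairs although the groups overlapped. The log2 fold change was -0.58 (SE 0.25, edgeR adjusted p = 0.254), and with the replicate block it was called (-0.58, SE 0.12, adjusted p = 0.00275). ALDHbr cells had 12.3, 12.2 and 6.42 CPM under DMSO and 7.73, 8.78 and 7.19 CPM under NIF, not called in either fit (adjusted p = 0.49 and 0.071). The genes nearest to LIF over the 12 SW620 libraries were PRDM8 (r = 0.990), EPHB2 (0.989) and FAM83A (0.988).

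**Figure D3:**
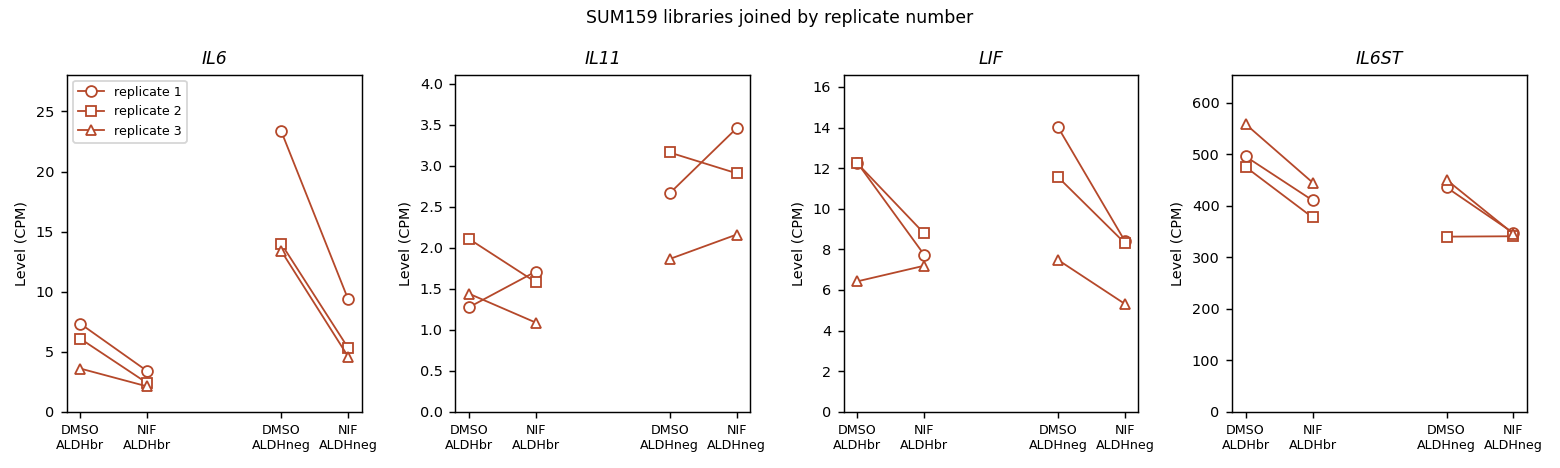
Levels of IL6, IL11, LIF and IL6ST (CPM, y axis starting at 0) in SUM159 under DMSO and NIF (x axis), with a line joining the libraries of 1 replicate number in each population. IL6 falls along all 6 lines and IL6ST along 5 of 6, the other being nearly level, while the lines of IL11 run in both directions.

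CLCF1, a ligand of the CNTFR, LIFR and gp130 complex, showed the largest change of the ligands in SW620 ALDHneg cells and had narrow replicates. Its levels rose from 20.3, 18.3 and 19.7 CPM under DMSO to 67.6, 63.7 and 70.3 CPM under NIF in ALDHbr cells, a log2 fold change of 1.79 (SE 0.06, edgeR adjusted p = 5.66e-11). In ALDHneg cells they rose from 18.3, 17.4 and 18.9 CPM to 70.2, 73.7 and 71.8 CPM, or by 1.98 (SE 0.06, adjusted p = 1.98e-11). The lowest NIF library of SW620 stood more than 3 times above the highest DMSO library, and the populations were not separated under either treatment.

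SUM159 also had more CLCF1 in every NIF library than in any DMSO library of the same population, at 12.8, 13.4 and 12.4 CPM against 14.1, 16.7 and 14.9 CPM in ALDHbr cells, and 12.4, 13.4 and 10.6 CPM against 15.4, 13.9 and 14.1 CPM in ALDHneg cells. The log2 fold changes of 0.24 (SE 0.10, edgeR adjusted p = 0.214) and 0.26 (SE 0.10, adjusted p = 0.183) were not called, and with the replicate block that of ALDHneg cells was (0.26, SE 0.09, adjusted p = 0.0442).

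IL6R, the chain that binds IL-6 itself, had the largest response to NIF of the 8 genes tested in SW620. ALDHbr cells had 3.29, 3.83 and 3.85 CPM under DMSO and 32.6, 27.5 and 25.9 CPM under NIF, and ALDHneg cells 2.26, 2.10 and 2.32 CPM against 30.0, 28.7 and 30.9 CPM. The groups lay far apart, with log2 fold changes of 2.97 (SE 0.10, edgeR adjusted p = 4.72e-11) and 3.74 (SE 0.11, adjusted p = 1.11e-11), or 7.85-fold and 13.3-fold. This took IL6R in SW620 from 0.634 to 4.97 CPM per kb in ALDHbr cells, in a line without a single IL6 count.

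Under DMSO, SW620 ALDHbr cells had more IL6R than ALDHneg cells (log2 fold change 0.71, SE 0.12, edgeR adjusted p = 0.00257), whereas under NIF the populations overlapped (-0.05, 95% interval from -0.25 to 0.14, adjusted p = 0.754). The estimated effect of NIF was smaller in ALDHbr cells by 0.76 on the log2 scale (SE 0.15). The adjusted p of this difference was 0.158 by edgeR within the line, 0.0127 by DESeq2 and 0.0443 by edgeR over all 24 libraries. Libraries were left out in turn only in the edgeR fit within the line, and none of those fits passed the test either. The DESeq2 fit and the fit over all 24 libraries were not repeated in this way for this difference.

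In SUM159, IL6R followed the sort and not the treatment. ALDHbr cells had 72.8, 66.7 and 71.8 CPM under DMSO and ALDHneg cells 35.5, 31.1 and 32.2 CPM, which gave 1.09 as the log2 fold change (SE 0.07, edgeR adjusted p = 1.78e-08). Under NIF the levels were 66.2, 66.6 and 69.2 CPM against 34.1, 35.5 and 36.8 CPM, or 0.92 (SE 0.06, adjusted p = 1.08e-07). The populations did not overlap under either treatment, and the comparisons of NIF with DMSO were not called in ALDHbr (-0.07, 95% interval from -0.22 to 0.08) or in ALDHneg cells (0.10, from -0.05 to 0.25).

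IL6ST, which encodes gp130, was the most abundant member of the family in SUM159. ALDHbr cells had 496, 475.6 and 559 CPM under DMSO and 411, 378 and 445 CPM under NIF, and ALDHneg cells 436, 340.2 and 451 CPM against 347, 341 and 346 CPM. The ALDHbr groups did not overlap, and the log2 fold change was -0.32 (SE 0.10, edgeR adjusted p = 0.0961), called with the replicate block (-0.32, SE 0.06, adjusted p = 0.000621) and by DESeq2 (adjusted p = 0.0362). In ALDHneg cells, where replicate 2 of DMSO lay at the level of the NIF libraries, it was -0.25 (SE 0.10, adjusted p = 0.196), called with the block (-0.24, SE 0.06, adjusted p = 0.00666) and without that library (-0.37, adjusted p = 0.0172).

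Under DMSO, IL6ST was higher in SUM159 ALDHbr than in ALDHneg cells by 0.32 on the log2 scale (SE 0.10, edgeR adjusted p = 0.0284). The call was lost without replicate 1 (adjusted p = 0.0525) or 3 (0.124) of ALDHbr DMSO, without replicate 2 of ALDHneg DMSO (0.0867), with library-size scaling (0.0822), with all 24 libraries (0.117) and with only the groups compared (0.0788). With the block it was 0.000109. Under NIF the difference was 0.25 (SE 0.10, adjusted p = 0.08; with the block 0.00172). HIPK2 (r = 0.986), TMTC1 (0.979) and SP1 (0.976) followed IL6ST most closely over the 12 SUM159 libraries.

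SW620 ALDHbr cells had 64.9, 102 and 61.0 CPM of IL6ST under DMSO and 120, 102 and 81.1 CPM under NIF, so that replicate 2 of DMSO lay inside the NIF group. The log2 fold change of 0.41 was not called (SE 0.17, edgeR adjusted p = 0.0604), and it was 0.69 without that library (SE 0.12, adjusted p = 0.000136) and 0.55 without replicate 3 of NIF (adjusted p = 0.0138). ALDHneg cells had 87.2, 96.8 and 96.5 CPM against 121, 106 and 119 CPM, without overlap and not called (0.29, SE 0.16, adjusted p = 0.167; 4.65e-06 with only the groups compared). Under DMSO the difference of ALDHbr from ALDHneg cells was -0.30 (adjusted p = 0.221), and without replicate 2 of ALDHbr DMSO it was -0.58 (SE 0.12, adjusted p = 0.00146).

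LIFR, the partner of gp130 for LIF, was present in SUM159 only and differed between the populations. Under DMSO it was at 48.7, 51.3 and 56.9 CPM in ALDHbr and 65.8, 56.5 and 68.1 CPM in ALDHneg cells, and the log2 fold change was -0.28 (SE 0.07, edgeR adjusted p = 0.0128). This call was lost without replicate 1 of ALDHbr DMSO (adjusted p = 0.0689) or replicate 1 or 3 of ALDHneg DMSO (0.0534 and 0.0591). Under NIF, at 53.9, 55.2 and 54.8 CPM against 65.9, 68.2 and 66.8 CPM, the groups did not overlap and the difference was -0.30 (SE 0.07, adjusted p = 0.00923). NIF and DMSO libraries overlapped in both populations.

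OSMR, which binds oncostatin M together with gp130, was high in SUM159, from 108 to 154 CPM over the 12 libraries, and between 0.0628 and 0.487 CPM in SW620. In SUM159 ALDHbr cells it was at 141, 121 and 154 CPM under DMSO and at 116, 108 and 131 CPM under NIF, lower in each of 3 same-numbered pairs although the groups overlapped. The log2 fold change was -0.23 (SE 0.10, edgeR adjusted p = 0.225), called with the replicate block (-0.23, SE 0.05, adjusted p = 0.00348). None of its other comparisons within a line was called.

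JAK1, the kinase that gp130 signalling depends on most, changed little. In SUM159 all 12 libraries lay between 103 and 130 CPM and no comparison was called. SW620 ALDHbr cells had 60.5, 78.1 and 65.1 CPM under DMSO and 83.1, 81.9 and 75.2 CPM under NIF, which overlapped. The log2 fold changes there were 0.24 in ALDHbr (SE 0.08, edgeR adjusted p = 0.0284) and 0.27 in ALDHneg cells (SE 0.08, adjusted p = 0.0138). Both calls were lost with library-size scaling (adjusted p = 0.0849 and 0.0729). The first was also lost with only the groups compared (0.103) and without replicate 1 (0.0888) or 2 (0.092) of ALDHbr NIF or replicate 1 (0.129) or 3 (0.0945) of ALDHbr DMSO, and the other without replicate 3 of ALDHneg NIF (0.0509) or DMSO (0.058).

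JAK2, another kinase of these receptors, rose under NIF in SW620. The levels were 5.28, 5.78 and 4.37 CPM under DMSO and 9.49, 7.85 and 8.80 CPM under NIF in ALDHbr cells, and 5.35, 5.69 and 5.02 CPM against 10.6, 8.77 and 9.05 CPM in ALDHneg cells. No NIF library overlapped a DMSO library, and the log2 fold changes were 0.76 (SE 0.12, edgeR adjusted p = 0.000142) and 0.81 (SE 0.12, adjusted p = 5.45e-05). In SUM159 the levels of JAK2 ran from 4.47 to 6.50 CPM over all 12 libraries, with no comparison called.

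Around these genes, 50 others of the pathway were followed: further ligands, receptors and kinases, sheddases that release receptors, adaptors, STATs, inhibitors, STAT3 targets, and inducers of IL6. They were chosen with earlier results of these data known. In SW620, 40 of them could be tested, of which 16 rose and 5 fell under NIF in ALDHbr cells, and 18 rose and 5 fell in ALDHneg cells (the shares over all genes are given above). Without replicate 2 of ALDHbr DMSO, 17 rose and 5 fell in ALDHbr cells, where all genes gave 26.1% higher and 24.3% lower. SOCS3, the feedback inhibitor of gp130 signalling, and SOCS2, an inhibitor of growth hormone signalling, rose most. In ALDHneg cells SOCS3 went from 1.38 to 6.94 CPM (log2 fold change 2.32, SE 0.13, edgeR adjusted p = 8.52e-09), and SOCS2 from 0.589 to 2.79 CPM (2.22, SE 0.21, adjusted p = 1.14e-06). In ALDHbr cells SOCS2 rose by 1.87 (SE 0.25, adjusted p = 3.68e-05), and SOCS3 from 0.743 to 3.51 CPM.

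Among the 11 STAT3 target genes, 9 rose and 1 fell in each SW620 population, where all genes gave 21.4% higher and 21.9% lower in ALDHbr and 22.3% and 22.7% in ALDHneg cells. The 11 targets, too, were chosen with earlier results of these data known, so their counts are a description only. PIM1, a survival kinase, and VEGFA, an angiogenic growth factor, named after their values were seen, rose by 1.29 (SE 0.06, edgeR adjusted p = 9.83e-10) and 1.24 (SE 0.05, adjusted p = 6.92e-10) in ALDHbr cells. IRF1, an interferon-induced factor, was the target that fell, by 0.44 on the log2 scale in ALDHbr (SE 0.06, adjusted p = 6.23e-05) and 0.55 in ALDHneg cells (SE 0.06, adjusted p = 6.9e-06). PIAS3, an inhibitor of STAT3, fell in ALDHneg cells (-0.40, SE 0.06, adjusted p = 5.77e-05). STAT3 RNA was not called in either population, at 102 and 99.2 CPM in ALDHbr and 109 and 100.3 CPM in ALDHneg cells under DMSO and NIF. In the study's gene set enrichment analysis of ALDHbr cells from both lines, STAT3 pathway genes had a negative association with NIF. It also reported a lower ratio of phosphorylated to total STAT3 and less cyclin D1 protein in SUM159. These are other measures than counts of called genes, and the gene lists were not compared.

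**Figure D4:**
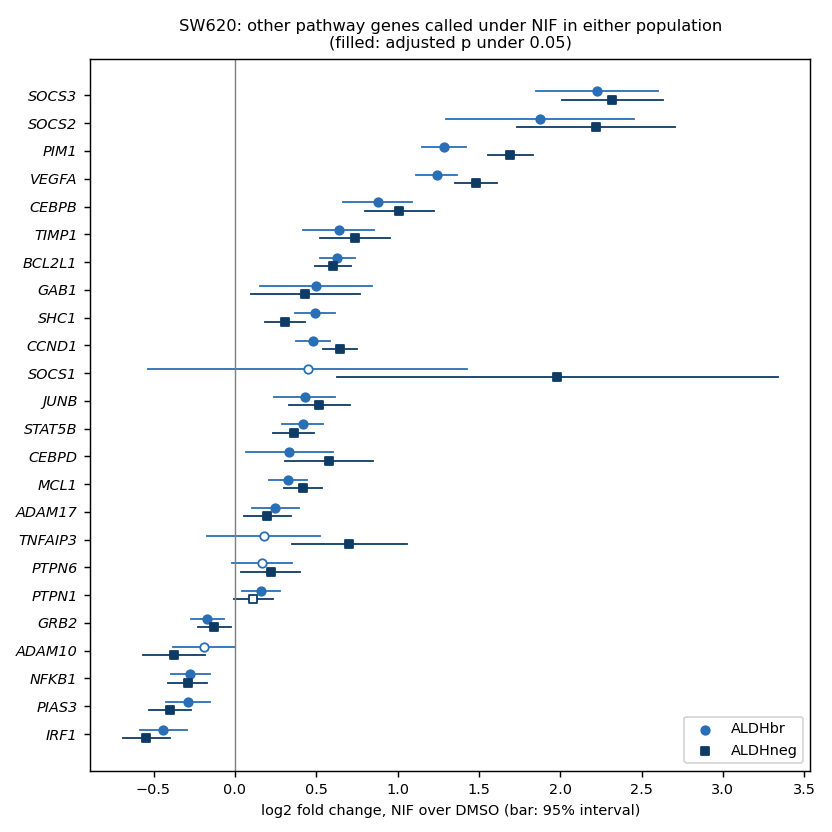
log2 fold change of NIF over DMSO in SW620 (x axis, bars for the 95% interval) for other pathway genes (y axis) that were called in at least 1 population, with circles for ALDHbr and squares for ALDHneg cells, filled where the adjusted p was under 0.05. SOCS3 and SOCS2 lie farthest to the right, followed by PIM1, VEGFA and, in ALDHneg cells only and with the widest interval, the scarce SOCS1, and of the genes drawn IRF1 lies farthest to the left.

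In SUM159, 42 of the 50 could be tested. Under NIF, ALDHbr cells had 0 higher and 5 lower: IL1B (log2 fold change -2.10, SE 0.34, edgeR adjusted p = 0.00318) and IL1A (-0.99, SE 0.24, adjusted p = 0.0317), cytokines that induce IL6, EBI3 (-1.90, SE 0.45, adjusted p = 0.0327), a subunit of IL-27, and the NF-kB inhibitors and targets TNFAIP3 (-0.93, SE 0.22, adjusted p = 0.0327) and NFKBIA (-0.39, SE 0.09, adjusted p = 0.0249). IL1B went from 8.44 to 1.96 CPM. All 5 were also called without replicate 3 of ALDHbr DMSO, as were 2.12% of all genes. ALDHneg cells had 0 higher and 2 lower, NFKBIA (-0.68, SE 0.09, adjusted p = 0.000696) and TNFAIP3 (-0.93, SE 0.22, adjusted p = 0.0331). With the replicate block the counts were 1 higher and 10 lower in ALDHbr cells and 4 higher and 11 lower in ALDHneg cells, against 13.3% and 13.2% of all genes.

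Under NIF, STAT3 and SOCS3 of SUM159 were not called by edgeR without the block. Levels of STAT3 in ALDHbr cells were 169 CPM under DMSO and 150.3 CPM under NIF (log2 fold change -0.18, SE 0.06, edgeR adjusted p = 0.146; with the block 0.0126), and those of SOCS3 22.7 and 26.9 CPM (0.24, SE 0.08, adjusted p = 0.105; with the block 0.0192). The change of SOCS3 under NIF was larger in SW620 than in SUM159, by 1.98 in ALDHbr cells (SE 0.17, adjusted p = 4.4e-09).

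Between the SUM159 populations, 10 of the 42 genes were higher and 6 lower in ALDHbr cells under DMSO, where all genes gave 10.7% higher and 12.3% lower. Without replicate 3 of ALDHbr DMSO, 10 were higher and 3 lower (7.63% and 9.12% of all genes). IL1A (56.2 against 4.77 CPM, log2 fold change 3.58, SE 0.27, edgeR adjusted p = 2.38e-07) and IL1B (8.44 against 1.03 CPM, 3.02, SE 0.37, adjusted p = 2.39e-05) were higher in ALDHbr cells, in which IL6 was lower. IL11RA, the receptor of IL-11, was lower (-1.08, SE 0.27, adjusted p = 0.00829), as was SOCS2 (-0.90, SE 0.14, adjusted p = 0.000288), and STAT3 was higher (0.31, SE 0.06, adjusted p = 0.00168). Under NIF 9 were higher and 5 lower (9.95% and 12% of all genes), led by IL1A (3.53) and IL1B (2.26) on one side and SOCS2 (-0.68) and IL31RA (-0.59) on the other. The block gave 14 higher and 9 lower under DMSO and 13 higher and 8 lower under NIF, with 36% and 35.2% of all genes called in either direction.

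In SW620, of 40 genes, 4 were higher and 5 lower in ALDHbr cells under DMSO, where 11.3% of all genes were called, and 1 was higher and 6 lower under NIF, where 6.67% were. Without replicate 2 of ALDHbr DMSO the counts under DMSO became 6 higher and 12 lower, against 18.6% and 20.2% of all genes. Whether the lines differed in these counts was not tested. SOCS3 was lower in ALDHbr than in ALDHneg cells under both treatments, by log2 fold changes of -0.88 (SE 0.18, edgeR adjusted p = 0.00746) and -0.98 (SE 0.12, adjusted p = 0.000204). PIAS3 was lower under DMSO (-0.37, SE 0.06, adjusted p = 0.000988) and SOCS2 under NIF (-0.95, SE 0.19, adjusted p = 0.007). IL27RA, a receptor chain for IL-27, was higher under both, at 1.43 against 0.806 CPM and 1.47 against 0.793 CPM (adjusted p = 0.0437 and 0.0489), and SOCS1 under DMSO, at 0.437 against 0.0985 CPM, where the latter is the level of about 3 counts.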

How the data were processed

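The table that the authors deposited holds whole-number read counts for 28307 genes in 24 libraries, not normalized. Per the labels, RNA was extracted with a Maxwell kit and libraries were made with a stranded total RNA protocol. The submitters' processing notes name FastQC, STAR and GRCh38. The counting tool, its strand setting and the annotation are not given in the sources used here. Each sample took its group from its labels, with 3 libraries per group, and 0 columns were left unmapped.

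Each line was fitted apart (12 libraries, 4 groups) in R 4.3.3 with edgeR 4.0.16, after filterByExpr by group and TMM normalization, with the quasi-likelihood F test and p-values adjusted over all genes by the method of Benjamini and Hochberg (threshold 0.05). Comparisons between lines used all 24 libraries. CPM values use TMM-adjusted library sizes. Standard errors are the log2 fold change over the square root of F, and log2 CPM for likeness between genes used a prior count of 2. Floors of 3 counts per library and all such limits cover counting error only. The steps were tested on simulated counts.

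Same-numbered SUM159 libraries deviated together (r from 0.125 to 0.451, over 0.1 in 18 of 18 pairs), so the numbers were taken to pair them. Named were all 10 genes, STAT3 and SOCS3, the 2 highest and 2 lowest called pathway genes in each comparison of treatments or populations, and for IL6, IL11, LIF and IL6ST the 3 genes with the highest Pearson r in the line with the higher mean. The genes and lists were chosen with earlier results of these data known. Alternatives were other filters, DESeq2 1.42.0, scaling by RLE or by library size alone, only the groups compared, all 24 libraries, the replicate block and leaving out each library. Pathway counts without the 2 libraries that stood apart were added after seeing the data. Promoters were matched by symbol in RefSeq tables of GRCh38.p14, and spliced lengths were taken from MANE Select transcripts of GENCODE lifted to GRCh37. PIM1 and VEGFA, outside the rule, were named after their values were seen. A result of the rule that falls under withheld items is not reported here.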

Additional observations from a re-analysis of the deposited data

Results flagged for a closer look

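The difference in the effect of NIF between SW620 and SUM159 was tested over 24 libraries with edgeR, and it passed for 6 genes in each population, each with the larger log2 fold change in SW620. In ALDHbr cells the difference was 3.04 for IL6R (SE 0.12, adjusted p = 1.5e-14), 1.84 for IL11 (SE 0.44, adjusted p = 0.00319), 1.54 for CLCF1 (SE 0.11, adjusted p = 4.2e-10), 1.09 for LIF (SE 0.27, adjusted p = 0.00451), 0.92 for JAK2 (SE 0.20, adjusted p = 0.00157) and 0.72 for IL6ST (SE 0.20, adjusted p = 0.0118). That of IL6ST missed the threshold when only the 4 groups compared were fitted (0.72, adjusted p = 0.0502). JAK1 was not called here (0.31, adjusted p = 0.0574), but was without replicate 2 of SW620 ALDHbr DMSO (0.42, SE 0.11, adjusted p = 0.0039). The concentration of NIF in each line is not given in the sources used here.

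In ALDHneg cells the difference was 3.64 for IL6R (SE 0.12, adjusted p = 4.41e-16), 1.72 for CLCF1 (SE 0.11, adjusted p = 6.12e-11), 1.36 for LIF (SE 0.27, adjusted p = 0.000492), 0.90 for JAK2 (SE 0.20, adjusted p = 0.00158), 1.17 for IL11 (SE 0.42, adjusted p = 0.0485) and 0.36 for JAK1 (SE 0.12, adjusted p = 0.0304). IL11 lost its call without replicate 2 or 3 of SUM159 NIF, replicate 1 or 2 of SUM159 DMSO, replicate 1, 2 or 3 of SW620 NIF, or replicate 1 or 3 of SW620 DMSO in this population (adjusted p from 0.0556 to 0.138), and with library-size scaling (0.0575). JAK1 lost it without replicate 2 of SUM159 NIF, replicate 1 or 3 of SUM159 DMSO, replicate 1 or 3 of SW620 NIF, or replicate 2 or 3 of SW620 DMSO (adjusted p from 0.0517 to 0.123), and with library-size scaling (0.134). The populations share their lines and experiments, so the differences in one are not independent of those in the other.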

How the results depend on the processing

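The 45 called log2 fold changes kept their sign in all 664 refits, and their call in 619 of them. The 48 values smaller than their SE changed sign in 84 of 761 refits, none of them called. In SUM159 ALDHbr cells under NIF the count of called genes, 0, became 1 with DESeq2, 2 without a filter on low counts and 3 with the replicate block, and 0 to 1 when 1 library was left out. In ALDHneg cells the count of 1 became 4 with the block and 0 to 2 with 1 library left out. Between the SUM159 populations, 4 became 2 to 5 under DMSO and 2 to 4 under NIF on leaving out 1 library, the counts of 2 coming without replicate 1 of ALDHbr DMSO and of ALDHneg NIF. With all 24 libraries in 1 fit, the SW620 populations had 1 gene called under DMSO and 0 under NIF, and 1 gene (IL6R) had an effect of NIF that differed between them, as with DESeq2 (1). The comparison of the lines gave 5 with at least 10 counts in every library, since IL6, LIFR, OSMR and IL11 then left the test. Library-size scaling moved the median of all genes by 0.15 (log2) between the lines and by less than 0.1 elsewhere. The numbers of SW620 libraries do not pair them (r over 0.1 in 1 of 18 pairs), and the replicate block there changed no call of the 8 genes. Over all genes, the block moved the calls in SUM159 from 473 to 1995 (ALDHbr) and 493 to 1970 (ALDHneg) under NIF, and from 3432 to 5388 and 3281 to 5270 between the populations. DESeq2 gave 875 and 884 under NIF, all 24 libraries 725 and 743, and only the groups compared 292 in ALDHneg cells. Leaving out 1 library gave 222 to 322 (ALDHbr) and 192 to 584 (ALDHneg) under NIF in SUM159, and 712 to 5486 under DMSO and 494 to 996 (931 with all) under NIF between the SW620 populations. In SW620, only the groups compared gave 729 and not 1577 between the populations under DMSO, and DESeq2 29 and not 1 for the difference of the NIF effects. For the difference between lines the replicate block within each line gave 7 called genes and not 6 in each population, JAK1 being added in ALDHbr (adjusted p = 0.0249) and IL6ST in ALDHneg cells (0.0306). The floor used for IL6 and LIFR in SW620, 0.103 CPM, is that of 3 counts in the shallowest library of the line alone. Neither gene had a count in any of the 12 SW620 libraries, so their level over the line may lie well below it.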
